A study of Mus musculus with 8 samples.

Results

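Muscle energy metabolism uses enzymes that come in paired forms, each pair encoded by a gene that is high in muscle and a gene that is used in many tissues. The 10 genes described here are 5 such pairs, chosen by name: Ckm with Ckb, Pygm with Pygb, Pfkm with Pfkp, Pgam2 with Pgam1 and Eno3 with Eno1. They are 10 of the 23420 genes counted, and 9 of them were among the 13167 genes with enough counts to be tested. The tenth, Eno1, had 0 to 2 counts in every library.

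Skeletal muscle makes large amounts of creatine kinase, which keeps ATP topped up from phosphocreatine, and of the enzymes that break glycogen and glucose down to pyruvate. As myoblasts leave the cell cycle and fuse into myotubes, the muscle forms of these enzymes are known to be switched on, and the brain or general forms give way to them to different degrees. Members of a pair catalyse the same reaction but differ in regulation and in the tissues that use them.

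C2C12 cells are a mouse myoblast line that forms myotubes when serum is lowered. The study compared WT C2C12 cells with C2C12 cells overexpressing AUF1, an RNA-binding protein encoded by Hnrnpd that recognises AU-rich stretches in mRNAs. All cells were grown with 10% FBS and then held for 48 h in medium with 2% HS (horse serum), and 500 ng of RNA went into each library. From each genotype 2 libraries of total RNA and 2 of cytoplasmic RNA on heavy polysomes, titled High, were sequenced, giving 8 libraries in 4 groups. The promoter driving AUF1, any vector in the WT cells and the make-up of the AUF1 line (a pool or 1 clone) are not given in the sources at hand. What AUF1 did and how the lines differed otherwise therefore cannot be told apart. Nothing in the labels says that the libraries of a group are separate cultures. The p-values thus measure the spread between libraries, and that spread may be technical.

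Libraries held 25281224 to 34917660 counts in genes. Hnrnpd stood at 64.2 and 99.6 CPM (each count relative to the depth of its library) in WT total RNA, against 448 and 397 CPM with AUF1, with 106 and 131 CPM against 549 and 427 CPM on polysomes. Summed levels of 6 skeletal myotube markers (Myog, Mylpf, Myh3, Tnnt3, Acta1 and Des) ran from 4793 to 5593 CPM in WT total RNA and from 22392 to 27002 CPM in AUF1 total RNA. On polysomes they ran from 4083 to 6425 CPM and from 19471 to 24065 CPM. Summed levels of 6 fibroblast markers ran from 219 to 1138 CPM in WT total RNA and from 90.5 to 475 CPM in AUF1 total RNA, with Lum at 0 in both groups. Those of 6 smooth muscle markers ran from 5612 to 6657 CPM and from 8663 to 13760.5 CPM. Most of that sum was Acta2, with means of 5389 CPM in WT total RNA and 9657 CPM in AUF1 total RNA. Tagln was at 524 and 1198 CPM, whereas Myh11 was near the floor and went the other way, at 0.23 and 0.0916 CPM. Neuronal or glial markers, which bear on the brain forms Ckb and Pygb, summed to at most 3.97 CPM in any library, with Rbfox3 and Snap25 at 0 in both groups of total RNA. WT polysome replicate 1 stood apart from the other 7 libraries, with 255 counts of Myl7, 113 of Lum and 23 of Nppa against 0 to 2 of each elsewhere. It was kept, and its part in the polysome results was not tested. The polysome fold changes of Ckm, Pygm, Pgam2 and Pfkm between genotypes are also given without it. The DESeq2 counts and the counts of members without overlap on polysomes include it. The part of the shifts in muscle and fibroblast markers in the results below was not tested. In RNA from a whole culture, more cells of a type and more RNA per cell cannot be told apart.

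The comparison of total RNA asks which steady-state messages differ with AUF1. Of the 5 muscle forms Ckm, Pygm, Pgam2 and Pfkm rose, by 22.0, 8.28, 7.97 and 3.69 times. Eno3, at 2.34 times the WT level, did not pass edgeR's test without a replicate term, and neither did Ckb at 3.03 times and Pfkp at 2.12 times. Pygb and Pgam1 differed by less than the spread between libraries, and the contrast between the forms of a pair is measured by their ratio further on. By edgeR's quasi-likelihood test, 4 of the 9 tested members were called higher at an adjusted p under 0.05, against 0.82% of all genes tested, and 0 were called lower. Those calls were lost when any 1 of the 8 libraries was left out, when only the total RNA libraries were fitted, or when the libraries were scaled by DESeq2's size factors. DESeq2 called 6 members higher against 3.97% of genes. In 7 of the 9 members both AUF1 libraries lay above both WT libraries, against 22.5% of genes.

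**Figure D1:**
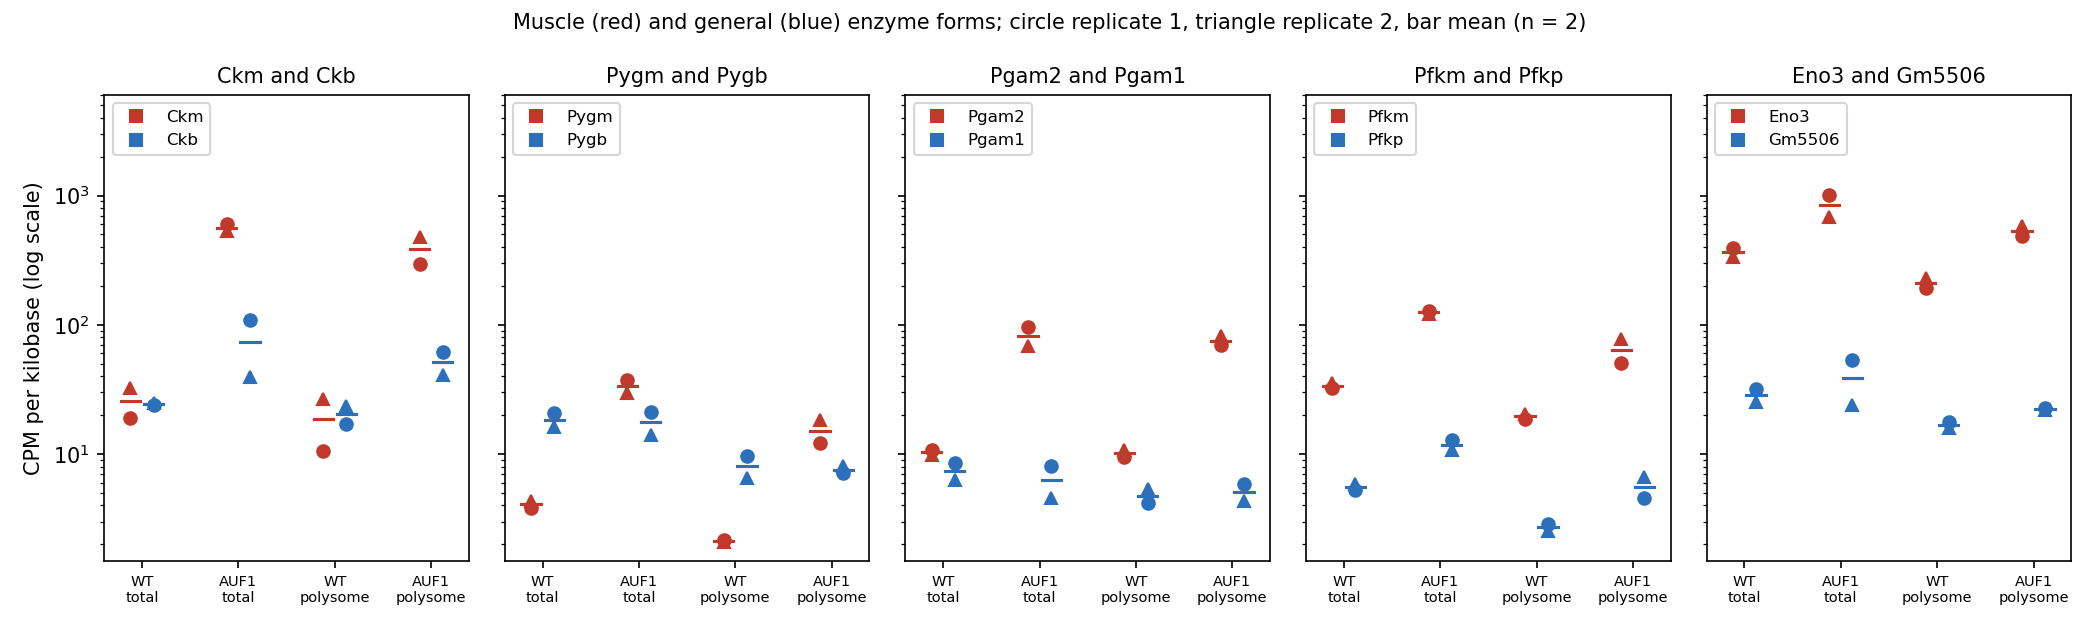
Level of each enzyme form in the 8 libraries, as CPM per kilobase of exon on a log axis, with the muscle form in red and the general form in blue. Circles are replicate 1, triangles replicate 2 and bars the mean of 2 libraries; Gm5506 is drawn with Eno3 because Eno1 had almost no counts, and Ckm goes from 25.6 to 563 CPM per kilobase in total RNA while Ckb goes from 24.4 to 73.8.

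Creatine kinase moves phosphate between ATP and creatine, and its cytosolic subunits are M (Ckm, mm10 chromosome 7, 19404776 to 19422841, 8 exons) and B (Ckb, chromosome 12, 111669361 to 111672338, 8 exons). Ckm stood at 55.1 and 94.2 CPM in the 2 WT libraries of total RNA, against 1741 and 1537 CPM in those of AUF1 cells. The groups were far apart, and both AUF1 libraries exceeded the higher WT library many times over. The log2 fold change was 4.46 ± 0.59 (SE, n = 2 a group), with an edgeR adjusted p of 0.041. Within replicate numbers 1 and 2 it was 4.98 and 4.03. Ckb stood at 69.1 and 72.1 CPM in WT cells, against 314 and 114 CPM with AUF1. Both AUF1 libraries were higher than WT, but replicate 1 lay far above replicate 2. The log2 fold change of Ckb was 1.60 ± 0.51, with an interval of 0.37 to 2.83 (95%) and an edgeR adjusted p of 0.234, and without AUF1 total replicate 1 it was 0.64. In the transcript models 21.9% of the 50-base windows of Ckb also occur in other genes, mostly the pseudogene Gm12892, and 11.7% of those of Ckm occur in A930016O22Rik, so part of both counts depends on how shared reads were assigned.

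The RefSeq promoters of the pair (GRCm38.p6, 250 bases before to 50 after the start) are printed because they differ in the E-box, the sequence CANNTG that muscle bHLH factors such as MyoD and myogenin can bind. Capitals mark E-boxes. The Ckm promoter (chr7:19410844-19411143, plus strand) holds 1, a CAGCTG at position -249 (the first base of a match, with the start as 0), and the Ckb promoter (chr12:111672289-111672588, minus strand) holds 0. Ckb has a match to the MEF2 consensus at -29 that overlaps a TATAAA at -28.
Ckm: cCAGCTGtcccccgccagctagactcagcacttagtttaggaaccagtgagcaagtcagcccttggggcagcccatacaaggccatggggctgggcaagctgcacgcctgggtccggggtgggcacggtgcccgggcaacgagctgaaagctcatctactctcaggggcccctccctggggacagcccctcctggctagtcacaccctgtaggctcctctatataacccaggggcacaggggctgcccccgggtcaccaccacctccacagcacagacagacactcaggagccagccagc
Ckb: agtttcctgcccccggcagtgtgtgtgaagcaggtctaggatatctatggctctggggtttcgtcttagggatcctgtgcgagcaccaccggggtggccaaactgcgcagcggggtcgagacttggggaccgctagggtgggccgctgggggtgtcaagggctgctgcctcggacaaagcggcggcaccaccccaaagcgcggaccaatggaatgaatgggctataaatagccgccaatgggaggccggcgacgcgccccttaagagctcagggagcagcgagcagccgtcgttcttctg

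Glycogen phosphorylase releases glucose 1-phosphate from glycogen. The muscle form is Pygm (chromosome 19, 6384399 to 6398459, 20 exons), the gene lost in McArdle disease, and the brain form is Pygb (chromosome 2, 150786735 to 150831758, 20 exons). Pygm stood at 12.2 and 14 CPM in WT total RNA, against 121 and 95.5 CPM with AUF1, groups that were well separated. Its log2 fold change was 3.05 ± 0.32, with an edgeR adjusted p of 0.0399, and 3.31 and 2.76 within the replicate numbers. Pygb stood at 99.5 and 78.6 CPM in WT cells, against 102 and 68.0 CPM with AUF1, and these groups overlapped. Its log2 fold change of -0.07 ± 0.33 had an interval of -0.86 to 0.73 (95%), so a change inside that interval remains possible (edgeR adjusted p = 0.975). Per kilobase of exon, Pygb was the more abundant form in both WT libraries and Pygm in both AUF1 libraries. The third family member, the liver form Pygl, had 75 counts in WT polysome replicate 1 and 0 to 10 in each of the other 7 libraries.

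The phosphorylase promoters are shown because 3 E-boxes fall in the window of Pygm and 0 in that of Pygb. In Pygm (chr19:6384158-6384457, plus strand) they start at -168, -8 and 38, the first pair being CAGCTG. Pygb lies at chr2:150786546-150786845 on the plus strand.
Pygm: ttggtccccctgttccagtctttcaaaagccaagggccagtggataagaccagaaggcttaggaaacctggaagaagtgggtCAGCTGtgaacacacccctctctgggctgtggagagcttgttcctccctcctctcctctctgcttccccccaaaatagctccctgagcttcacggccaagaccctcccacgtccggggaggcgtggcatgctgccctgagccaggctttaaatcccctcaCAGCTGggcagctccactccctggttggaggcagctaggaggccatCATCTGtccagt
Pygb: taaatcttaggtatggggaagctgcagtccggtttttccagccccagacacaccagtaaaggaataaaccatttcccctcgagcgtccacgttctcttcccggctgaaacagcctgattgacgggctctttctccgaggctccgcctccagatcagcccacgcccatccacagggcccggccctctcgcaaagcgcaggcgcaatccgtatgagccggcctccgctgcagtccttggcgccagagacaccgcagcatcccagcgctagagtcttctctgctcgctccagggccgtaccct

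Phosphofructokinase adds the second phosphate to fructose 6-phosphate, the committed step of glycolysis. Pfkm (chromosome 15, 98092589 to 98132451, 23 exons) encodes the muscle subunit and Pfkp (chromosome 13, 6579768 to 6648777, 22 exons) the platelet subunit. Pfkm stood at 109 and 118 CPM in WT total RNA, against 429.6 and 407 CPM with AUF1, with little spread in either group. Its log2 fold change was 1.89 ± 0.29, with an edgeR adjusted p of 0.0472, close to the threshold. Pfkp stood at 70.8 and 78.8 CPM in WT cells, against 173 and 143 CPM with AUF1. It was higher in both AUF1 libraries, by 1.08 ± 0.28 on the log2 scale with an interval of 0.40 to 1.76 (95%), and its edgeR adjusted p of 0.159 missed the threshold. The liver subunit Pfkl, measured beside them, had a log2 fold change of 0.24 ± 0.40 (edgeR adjusted p = 0.885). In the models 17.1% of the 50-base windows of Pfkp also occur in Pitrm1, and 0% of those of Pfkm occur in another gene.

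Phosphoglycerate mutase turns 3-phosphoglycerate into 2-phosphoglycerate. The muscle form Pgam2 (chromosome 11, 5801640 to 5803733, 3 exons) stood at 8.99 and 8.32 CPM in WT total RNA, against 80.9 and 57.1 CPM with AUF1. The general form Pgam1 (chromosome 19, 41911923 to 41918660, 4 exons) stood at 16.9 and 12.4 CPM in WT cells, against 16.0 and 9.07 CPM with AUF1. Pgam2 was thus higher in both AUF1 libraries, whereas the groups overlapped for Pgam1. The log2 fold change of Pgam2 was 2.99 ± 0.30, with an edgeR adjusted p of 0.0399, and 3.16 and 2.77 within the replicate numbers. That of Pgam1 was -0.23 ± 0.39, with an interval of -1.16 to 0.71 (95%) and an edgeR adjusted p of 0.895. In the models 41.5% of the 50-base windows of Pgam1 also occur in other genes, the pseudogene Pgam1-ps2 first, so its level is uncertain.

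Enolase makes phosphoenolpyruvate, and its muscle form is Eno3 (chromosome 11, 70657202 to 70662513, 12 exons). Eno3 stood at 686 and 577 CPM in WT total RNA, against 1767 and 1189 CPM with AUF1. Of the 9 tested members Eno3 was the most abundant per kilobase in WT cells. Its log2 fold change was the smallest of the 5 muscle forms, 1.23 ± 0.29 with an interval of 0.54 to 1.92 (95%) and an edgeR adjusted p of 0.128. The general form Eno1 (chromosome 4, 150236721 to 150248879, 12 exons) had 0 to 2 counts in each library, so no level or fold is given. In the models 72.2% of its 50-base windows also occur in other genes, and 70.5% occur in the retrogene Eno1b, which the count table lists under its other name Gm5506. Gm5506 stood at 59.4 and 47.7 CPM in WT total RNA, against 101 and 45.1 CPM with AUF1, groups that overlapped (log2 fold change 0.44 ± 0.40, edgeR adjusted p = 0.732). The sources used here do not give how reads were divided between Eno1 and its copies.

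The promoters of Pgam2 and Eno3 are printed beside these values because they too hold the CAGCTG form of the E-box. The Pgam2 window (chr11:5803747-5804046, minus strand) holds 5 E-boxes, at -245, -207, -132, -125 and -105, of which that at -125 is CAGCTG, and a MEF2 match at -80. The Eno3 window (chr11:70656926-70657225, plus strand) holds 2, at -81 and 38, the second being CAGCTG.
Pgam2: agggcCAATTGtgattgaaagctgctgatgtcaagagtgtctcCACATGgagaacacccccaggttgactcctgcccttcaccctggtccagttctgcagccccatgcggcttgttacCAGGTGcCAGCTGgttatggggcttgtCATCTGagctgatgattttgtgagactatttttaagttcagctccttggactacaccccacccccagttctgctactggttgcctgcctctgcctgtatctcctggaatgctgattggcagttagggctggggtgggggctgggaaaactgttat
Eno3: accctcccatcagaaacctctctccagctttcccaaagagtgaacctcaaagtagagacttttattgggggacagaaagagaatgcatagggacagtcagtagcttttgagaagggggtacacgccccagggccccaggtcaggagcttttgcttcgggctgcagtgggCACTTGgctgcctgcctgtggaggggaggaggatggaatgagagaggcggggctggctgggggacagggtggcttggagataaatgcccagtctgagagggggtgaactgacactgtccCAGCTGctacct

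Searched on both strands, CANNTG occurred in at least 1 annotated start of 5 of the 5 muscle forms and of 1 of the 5 general forms (Eno1), against 72.3% of 32851 RefSeq promoters of the same length. CAGCTG, which is a subset of CANNTG, occurred in 4 of 5 muscle forms (Ckm, Pygm, Pgam2 and Eno3) and in 0 of 5 general forms, against 16.3% of promoters. The MEF2 consensus was found in Pgam2 and Ckb, against 3.19% of promoters. The CArG box was found in 0 members, against 1.63%, and TATAAA, which can overlap the MEF2 consensus, in Ckb alone among the 10, against 13.6%. Pfkm has 4 annotated starts and Eno1 has 3, so they had more windows in which to match. These are matches of letters in short windows and show no binding.

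Because AUF1 recognises AU-rich sequence, the pentamer ATTTA was counted in the 3' UTR of the longest coding transcript of each member. It occurred in 3 of the 10 members, Ckm with 1, Pfkm with 1 and Pfkp with 9, against 66.1% of 11831 tested genes with a 3' UTR. The members' 3' UTRs were short, with a median of 353 bases against 980 bases for those genes. Of those genes 7.21% held 9 or more. The count of 9 for Pfkp comes from 1 transcript model, whose 3' UTR of 1692 bases was the longest of the 10 members. The Pfkm site (mm10 chr15:98132339-98132367, plus strand, 292 bases after the stop codon) lies within the nonamer TTATTTATT and is shown as the only nonamer among the members, with the pentamer in capitals.
Pfkm site: aaaataagctttATTTAtttctttgtgat
Of the 4 members that rose in total RNA, Pygm and Pgam2 hold no ATTTA in the annotated 3' UTR. A match says only that these letters are present.

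**Figure D2:**
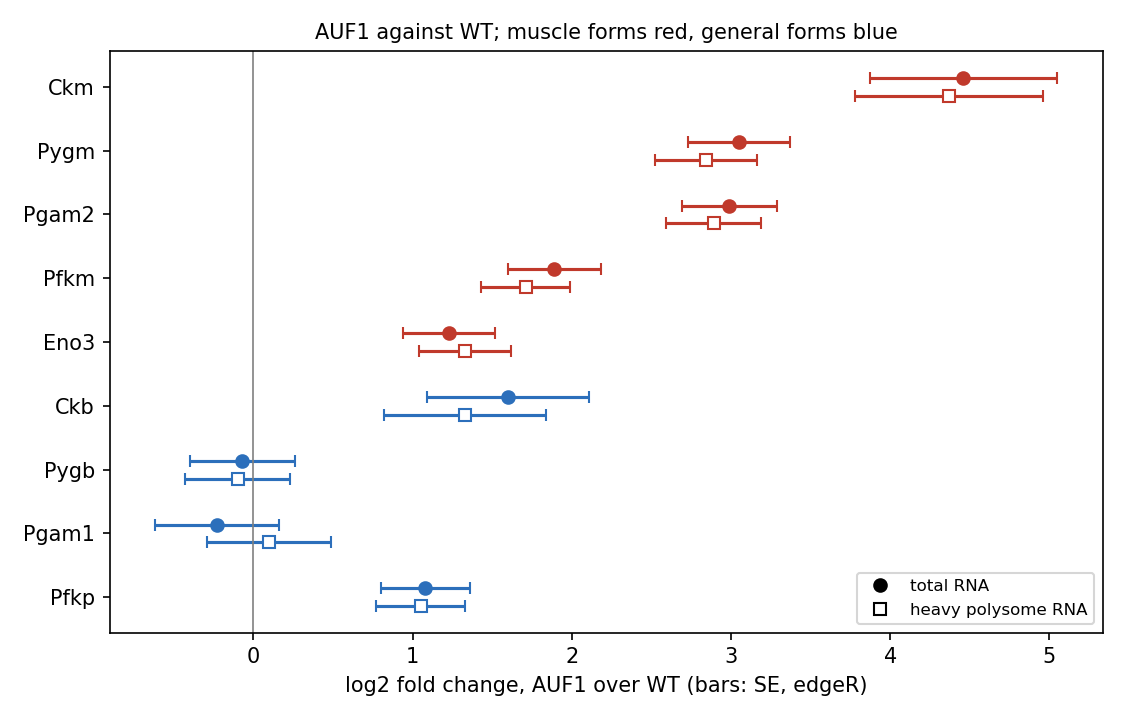
Log2 fold change of each tested member, AUF1 over WT, in total RNA (filled circles) and heavy polysome RNA (open squares), with muscle forms in red, general forms in blue and bars showing the SE from edgeR (n = 2 a group). Values for a gene in the 2 fractions lie within each other's SE, from 4.46 and 4.37 for Ckm down to -0.23 and 0.10 for Pgam1.

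On heavy polysomes the comparison asks which messages engaged by many ribosomes differ with AUF1, and the same forms stood highest. Ckm stood at 30.5 and 77.8 CPM in WT cells, against 853 and 1392 CPM with AUF1. Pygm stood at 6.93 and 6.70 CPM in WT cells, against 39.3 and 58.6 CPM with AUF1. Pgam2 stood at 8.04 and 9.11 CPM in WT cells, against 58.5 and 68.3 CPM with AUF1. For each of these 3 genes the genotypes were far apart relative to the spread between libraries. Pygm rose by 2.84 ± 0.32 and Pgam2 by 2.89 ± 0.30 on the log2 scale, each with an edgeR adjusted p of 0.0461. Ckm, at 4.37 ± 0.59, missed the threshold (edgeR adjusted p = 0.0535), and so did Pfkm at 1.71 ± 0.28 (0.069). The log2 fold change of Ckm was 3.85 without WT polysome replicate 1 and 5.2 without WT polysome replicate 2. Without WT polysome replicate 1, Pygm was at 2.87, Pgam2 at 2.80 and Pfkm at 1.64, and edgeR called 0 members.

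Pfkm stood at 62.8 and 68.5 CPM in WT polysome RNA, against 168 and 261 CPM with AUF1, and Eno3 at 336 and 403 CPM and at 847 and 1004 CPM. Both were higher in both AUF1 libraries, and the log2 fold change of Eno3 was 1.33 ± 0.29 (edgeR adjusted p = 0.113). Among the general forms Ckb stood at 49.8 and 67.8 CPM in WT cells, against 179 and 118 CPM with AUF1, a log2 fold change of 1.33 ± 0.51 (edgeR adjusted p = 0.309). Pfkp stood at 38.4 and 34.2 CPM in WT cells, against 61.2 and 88.7 CPM with AUF1, a log2 fold change of 1.05 ± 0.28 (edgeR adjusted p = 0.174). These 2 general forms were again higher without passing that test. Pygb stood at 46.6 and 31.5 CPM in WT cells, against 34.0 and 38.6 CPM with AUF1, and Pgam1 at 8.35 and 10.5 CPM and at 11.6 and 8.66 CPM. Both overlapped between genotypes, with log2 fold changes of -0.10 ± 0.33 and 0.10 ± 0.39 (edgeR adjusted p = 0.98 and 0.985).

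By edgeR 2 of 9 members were called higher on polysomes against 0.281% of genes, and 0 lower. Both calls were lost when any 1 of the 8 libraries was left out, when only the polysome libraries were fitted, or with DESeq2's size factors. DESeq2 called 6 members higher against 3.65% of genes. In 7 of 9 members, the same 7 as in total RNA, the AUF1 libraries lay above the WT libraries, against 23.6% of genes. The median log2 fold change of the 5 muscle forms was 2.99 in total RNA and 2.84 on polysomes, that of the 4 tested general forms 0.51 and 0.57, and that of all genes tested 0.00 in both.

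The balance within a pair does not depend on how libraries are scaled, so the level of the muscle form per kilobase was divided by that of the general form in each library. The Ckm to Ckb ratio was 0.793 and 1.3 in WT total RNA and 5.52 and 13.5 with AUF1. The Pygm to Pygb ratio was 0.183 and 0.266 in WT and 1.78 and 2.1 with AUF1. The Pgam2 to Pgam1 ratio was 1.25 and 1.58 in WT and 11.9 and 14.9 with AUF1. These 3 ratios were 8.49, 8.74 and 9.45 times higher with AUF1 (geometric means). The Pfkm to Pfkp ratio was 6.15 and 6.0 in WT and 9.94 and 11.4 with AUF1, 1.75 times higher. With Gm5506 added to Eno1 as the general form, and the exon length of Gm5506 used for the sum, the Eno3 ratio was 12.5 and 13.1 in WT. It was 18.9 and 28.5 with AUF1, 1.82 times higher. In the models 84.5% of the 50-base windows of Gm5506 also occur in other genes, 75.3% in Eno1. The level of the general form, and so the size of this ratio, is therefore uncertain.

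**Figure D3:**
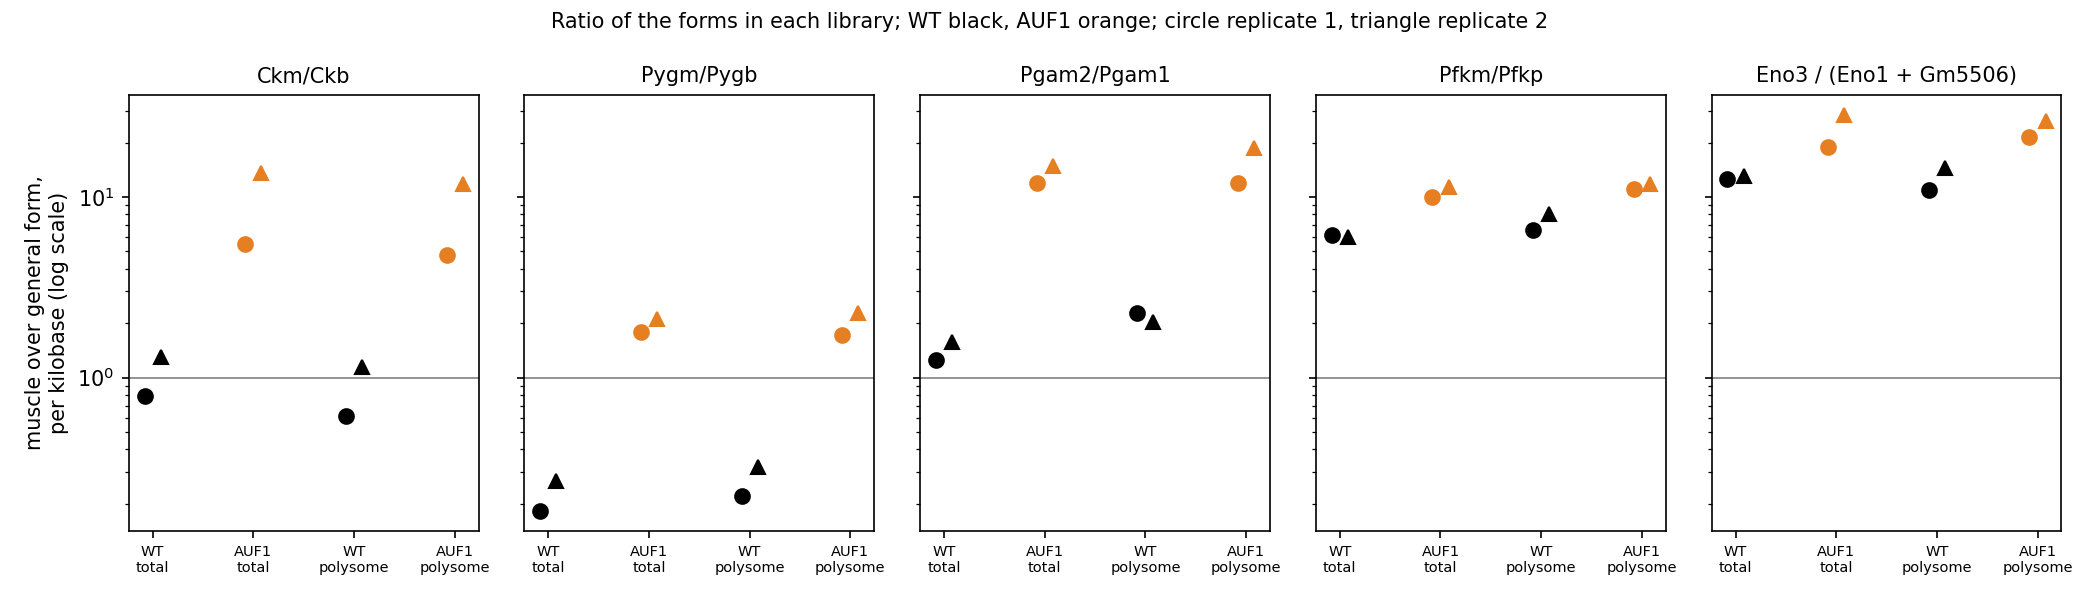
Ratio of muscle to general form in each library, per kilobase of exon on a log axis, with WT in black, AUF1 in orange, circles for replicate 1 and triangles for replicate 2. In each panel and in both RNA fractions the 2 AUF1 points lie above the 2 WT points, by 8.49 times for Ckm over Ckb in total RNA and 1.75 times for Pfkm over Pfkp.

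On polysomes the ratios were 0.609 and 1.14 in WT against 4.75 and 11.8 with AUF1 for Ckm to Ckb, 8.96 times higher. For Pygm to Pygb they were 0.222 and 0.318 against 1.73 and 2.27, 7.44 times higher. For Pgam2 to Pgam1 they were 2.27 and 2.04 against 11.9 and 18.6, 6.92 times higher. For Pfkm to Pfkp they were 6.56 and 8.03 against 11 and 11.8, 1.57 times higher. All 4 pairs that could be measured were higher in both AUF1 libraries in both fractions. With 2 libraries against 2, the exact two-sided permutation test cannot go below p = 0.333, which each of the 8 ratios reached (0.333 after Benjamini-Hochberg adjustment over the 8).

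Expressed as a share of the pair per kilobase, the muscle form made up 50.4% of Ckm plus Ckb in WT total RNA (mean of 2 libraries) and 88.9% with AUF1. Pygm went from 18.3% to 65.9% of its pair, Pgam2 from 58.4% to 93% and Pfkm from 85.9% to 91.4%. With these exon lengths, the phosphorylase pair alone of the 4 had the general form as the larger part in both WT total libraries. The Ckb share depends on the length used, which was 2.90 kb. The transcript model used for its windows has 1472 bases. With that length Ckb would stand higher per kilobase, and no share was computed with it. The Pfkp share depends on the length used, because its exons cover 13.40 kb in all transcripts together. With the longest transcript Pfkm made up 82% in WT and 88.9% with AUF1. The Ckm and Pgam2 shares depend on how shared reads were assigned. Of the 50-base windows, 21.9% of those of Ckb and 41.5% of those of Pgam1 also occur in other genes.

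Per kilobase the order in WT total RNA was Eno3 (363 ± 44.2 CPM per kilobase, SD, n = 2), Pfkm (33.9 ± 1.94), Ckm (25.6 ± 9.48), Ckb (24.4 ± 0.752), Pygb (18.5 ± 3.08), Pgam2 (10.3 ± 0.563), Pgam1 (7.41 ± 1.60), Pfkp (5.58 ± 0.419) and Pygm (4.07 ± 0.400). The neighbours Pfkm and Ckm, and Ckm and Ckb, did not differ beyond their spread. With AUF1 the order was Eno3 (850 ± 235), Ckm (563 ± 49.6), Pfkm (125 ± 4.81), Pgam2 (82.1 ± 20.0), Ckb (73.8 ± 48.9), Pygm (33.7 ± 5.70), Pygb (17.7 ± 5), Pfkp (11.8 ± 1.60) and Pgam1 (6.34 ± 2.49). Pgam2 and Ckb, and Ckb and Pygm, did not differ beyond their spread there. With these exon lengths Pygm was the lowest of the 9 in WT and lay above Pygb, Pfkp and Pgam1 with AUF1. The places of Pgam1 and Ckb in these orders are uncertain because of their shared windows. Those of Pfkp and Ckb, in total RNA and on polysomes, also depend on the length used. The exons of Pfkp cover 13.40 kb, against 4145 bases in the transcript model used for its windows. For Ckb these lengths were 2.90 kb and 1472 bases. Orders with the shorter lengths were not computed. On polysomes Eno3 was again the highest, at 193 and 231 CPM per kilobase in WT and 487 and 577 with AUF1. The lowest in WT was Pygm, at 2.15 and 2.08, and with AUF1 Pgam1, at 5.85 and 4.37, overlapped Pfkp, at 4.57 and 6.62.

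Across the 8 libraries the 5 muscle forms followed each other, with Pearson's r of log2 CPM between 0.87 and 0.99 over their 10 pairings, given as a description since the libraries share genotype and replicate number. The 4 tested general forms gave 0.19 to 0.72 over 6 pairings. Between the forms of a pair r was 0.86 for Ckm and Ckb, 0.94 for Pfkm and Pfkp, 0.27 for Pygm and Pygb and -0.06 for Pgam2 and Pgam1. The genes most like the mean of the muscle forms were Mybph, which encodes myosin-binding protein H (r = 0.996), Ankrd23, a muscle ankyrin repeat gene (0.995), Sipa1l2 (0.995), Aldh3b1 (0.995) and Aaas (0.994). Those most like the mean of the general forms were Btbd9 (0.993), Plin2, which coats lipid droplets (0.989), Arfgap2 (0.989), Nob1 (0.989) and Farsa (0.985), each over 8 libraries.

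Whether AUF1 altered how much of an enzyme mRNA sat on heavy polysomes was asked by the interaction, the fold change on polysomes minus that in total RNA. It ran from -0.26 (Ckb) to 0.33 (Pgam1) on the log2 scale over the 9 members. By edgeR 0 of 9 members and 0% of genes were called, with an adjusted p of 1 for each member, and DESeq2 also called 0 members and 0% of genes. At an unadjusted edgeR p under 0.05 there were 0 of 9 members and 0.122% of genes. A test with no true differences would give a share near the threshold itself. The edgeR fit was thus strict here, and its 0 of 9 says little about the members. The 95% intervals were wide, -1.83 to 1.66 for Ckm, -1.22 to 0.81 for Pygm and -0.86 to 1.06 for Eno3. Differences of any size inside them remain possible, and the intervals are not adjusted for the number of genes tested.

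Set against total RNA of the same genotype, most members stood lower in heavy polysome RNA as CPM, though none passed the test. Pfkp went from 70.8 and 78.8 CPM in WT total RNA to 38.4 and 34.2 CPM on WT polysomes, a log2 difference of -1.04 ± 0.28. Pygb stood at -1.19 ± 0.34, Pygm at -0.94 ± 0.30, Pfkm at -0.79 ± 0.28 and Eno3 at -0.77 ± 0.28. Pgam2, at -0.01 ± 0.28, differed between the fractions by less than its error. In AUF1 cells Pygb stood at -1.23 ± 0.34, Pygm at -1.15 ± 0.30, Pfkp at -1.08 ± 0.28, Pfkm at -0.96 ± 0.28 and Pgam2 at -0.12 ± 0.28. Both forms of glycogen phosphorylase and of phosphofructokinase thus lay on the lower side in both genotypes, and both Pgam2 values were near 0.

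By edgeR 0 of 9 members and 0% of genes were called between polysome and total RNA in WT, and 0 of 9 and 0% in AUF1 cells (adjusted p of 1 for each member). DESeq2 called 0 members in either genotype, against 0.242% and 0.22% of genes. At an unadjusted p under 0.05, 5 of 9 members were lower on WT polysomes against 2.46% of genes, and 4 of 9 on AUF1 polysomes against 3.11%. Polysome libraries lay below total libraries without overlap for 7 of 9 members in WT against 14.9% of genes, and for 6 of 9 in AUF1 cells against 13.4%. All 9 estimates were below 0 in both genotypes, with medians of -0.77 in WT and -0.68 with AUF1 beside 0.02 and -0.02 over all genes tested. Leaving out a library turned the sign for Ckm (up to 0.06) and Pgam2 (up to 0.08) in WT, and for Ckb (up to 0.39), Pgam2 (up to 0.15) and Pgam1 (up to 0.17) in AUF1 cells. For the 13 other glycolysis enzymes the medians were -0.42 and -0.47, and for 8 myotube genes 0.04 and -0.05. These differences compare 2 RNA preparations, and the part of the preparation in them was not tested.

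**Figure D4:**
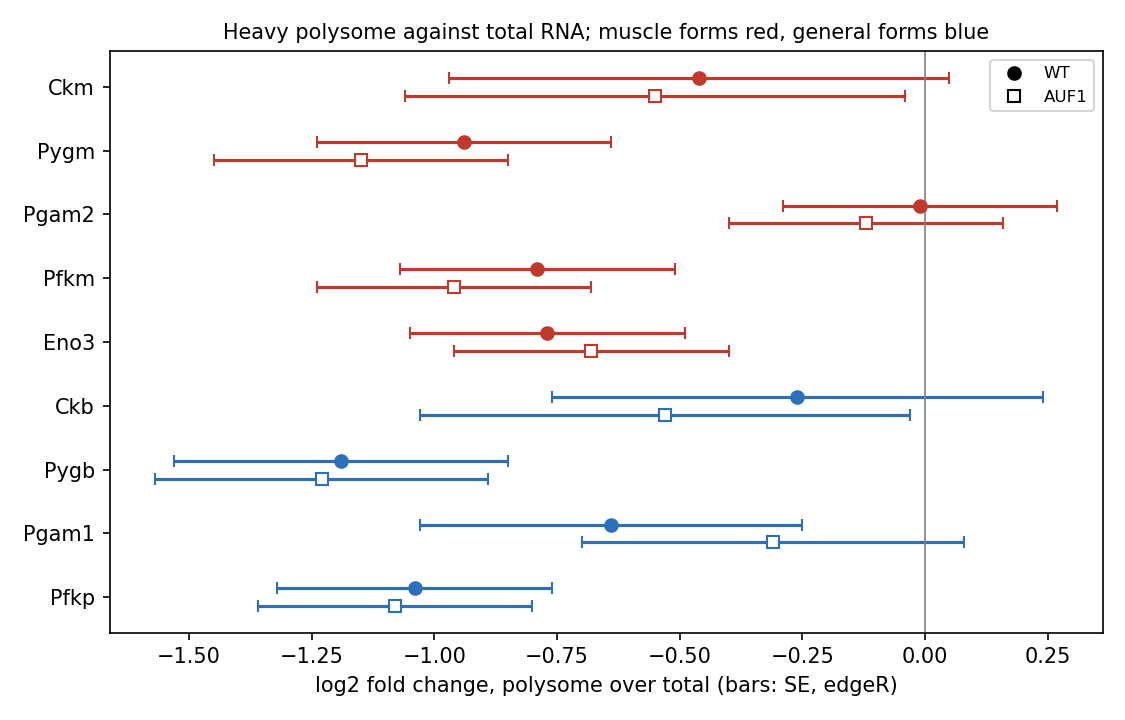
Log2 difference between heavy polysome and total RNA for each tested member in WT (filled circles) and AUF1 cells (open squares), with muscle forms in red, general forms in blue and bars showing the SE from edgeR (n = 2 a group). All estimates lie at or below 0, from -1.23 for Pygb in AUF1 cells to -0.01 for Pgam2 in WT, and none passed the test.

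By edgeR 0 of the other 13 glycolysis enzymes were called in either fraction. At an unadjusted p under 0.05 there were 4 in total RNA, against 13.7% of genes, and 3 on polysomes, against 14.1%. DESeq2 called 1 higher in each, against 3.97% and 3.65% of genes. Of the 13, 12 were above 0 in total RNA with a median log2 fold change of 0.45, and 11 on polysomes with a median of 0.53. Aldoa, the aldolase form of muscle and red cells, stood at 1071 and 1007 CPM in WT total RNA, against 3138 and 2017 CPM with AUF1, a log2 fold change of 1.31 ± 0.29 that did not pass (edgeR adjusted p = 0.115). Hk2, the insulin-responsive hexokinase of muscle, was at 1.07 ± 0.30 and Tpi1, triose phosphate isomerase, at 0.89 ± 0.32 (edgeR adjusted p = 0.184 and 0.288). Gapdh was at 1.62 ± 0.61, but 90.4% of its 50-base windows occur in other genes, mostly pseudogenes. It stood at only 1.01 and 1.19 CPM in WT total RNA, against 4.94 and 1.85 CPM with AUF1.

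Of 17 other genes of glycogen metabolism 15 were tested and edgeR called 0 in either fraction. At an unadjusted p under 0.05 there were 4 in total RNA, against 13.7% of genes, and 6 on polysomes, against 14.1%. DESeq2 called 1 higher in total RNA, and 1 higher and 1 lower on polysomes. The median log2 fold change was 0.26 in total RNA and 0.52 on polysomes. Gys1, the glycogen synthase of muscle, lay nearest to the threshold in total RNA at 1.51 ± 0.25 (edgeR adjusted p = 0.0579). Pgm2, a phosphoglucomutase, was at 0.92 ± 0.27, and Phka2, the liver form of a phosphorylase kinase subunit, at 0.98 ± 0.28 (edgeR adjusted p = 0.203 and 0.192). The muscle form Phka1 was at 0.10 ± 0.30. The Phka1 to Phka2 ratio was therefore lower in both AUF1 libraries, by -0.88 on the log2 scale in total RNA and -0.79 on polysomes, the opposite side to the 4 measured member pairs (exact permutation p = 0.333 for each, the smallest possible with 2 against 2).

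Among 13 tested enzymes of phosphagen and adenylate metabolism the median log2 fold change in total RNA was 0.61 and 1 was called, Ampd1, the AMP deaminase of skeletal muscle. It had 5 and 4 counts in the WT total libraries and 79 and 88 with AUF1, a log2 fold change of 4.11 ± 0.51 (edgeR adjusted p = 0.0399). On polysomes it had 1 and 2 counts in WT and 78 and 55 with AUF1 and was again called (edgeR adjusted p = 0.0461). The more widely used Ampd2 was at 0.16 ± 0.32 in total RNA. Ckmt2, the mitochondrial creatine kinase of muscle, had 0 counts in both WT total libraries and 34 and 4 with AUF1, and the general Ckmt1 had at most 2 counts. Ak1, the cytosolic adenylate kinase, was at 0.96 ± 0.25 and Adsl, adenylosuccinate lyase, at 0.85 ± 0.26 (edgeR adjusted p = 0.16 and 0.224).

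Other pairs of forms gave mixed values. The Adssl1 to Adss ratio, for adenylosuccinate synthase, was higher in both AUF1 libraries of total RNA by 1.21 on the log2 scale, and overlapped on polysomes at 0.52. The Hk2 to Hk1 ratio overlapped in total RNA at 0.73 and was higher on polysomes at 0.63. The Ldha to Ldhb ratio overlapped in both, at 0.45 and 0.43. The catalytic phosphorylase kinase subunit Phkg1 had 0 to 7 counts, so its ratio to Phkg2 is not given.

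Of 9 tested regulators of glycolytic flux, edgeR called 0 in either fraction. At an unadjusted p under 0.05 there were 2 in each, against 13.7% of genes in total RNA and 14.1% on polysomes. DESeq2 called 2 lower in total RNA and 1 lower on polysomes. The median log2 fold change was -0.07 in total RNA and -0.04 on polysomes. Pdk4, a kinase that shuts off pyruvate dehydrogenase, stood at 75.9 and 79.5 CPM in WT total RNA, against 29.2 and 40.2 CPM with AUF1, a log2 fold change of -1.16 ± 0.29 (edgeR adjusted p = 0.144). Pfkfb3, which makes the activator fructose 2,6-bisphosphate, was at -1.18 ± 0.38, Pfkfb2 at -0.79 ± 0.36 and Pdk1 at -0.65 ± 0.27 (edgeR adjusted p = 0.242, 0.416 and 0.366). Both Pdk4 and Pfkfb3 lay lower in both AUF1 libraries, on the side opposite to the muscle enzymes, without passing edgeR's test.

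Contractile and regulatory genes of myotubes gave a median log2 fold change of 1.84 in total RNA over 8 genes, beside 2.99 for the muscle enzyme forms, and 8 of 8 were above 0. The 2 called were Myh3, embryonic myosin heavy chain, at 3.48 ± 0.45, and Acta1, skeletal actin, at 2.68 ± 0.39 (edgeR adjusted p = 0.041 and 0.0439). Myog, which drives terminal differentiation, was at 1.76 ± 0.29 and Mylpf, a fast myosin light chain, at 1.92 ± 0.33 (edgeR adjusted p = 0.0577 and 0.0625). On polysomes edgeR called 0 of the 8, with 6 at an unadjusted p under 0.05 against 14.1% of genes. DESeq2 called 6 higher against 3.65% of genes, and the median was 1.66.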

How the data were processed

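RNA of 8 C2C12 libraries was read as gene counts. The authors deposited raw counts per gene symbol for 23420 genes plus summary lines, which were left out of totals and tests (reads outside genes 6.04% to 7.23%, ambiguous reads 0.254% to 0.389%). Per the submitters' processing notes the tools were STAR, Bowtie, SAMtools, cutadapt and Trimmomatic, on mm10. Not given in the sources used here are the annotation, the counter and its strand setting.

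Groups follow the labels. Titles number the replicates 1 and 2, and descriptions call the second Rep3. In edgeR 4.0.16 (R 4.3.3) genes were kept by filterByExpr (13167), scaled by TMM and fitted with 1 coefficient per group in a quasi-likelihood model over all 8 libraries, with Benjamini-Hochberg adjustment over all genes of a comparison and a threshold of 0.05. An SE was derived as log2 fold change divided by the root of F, and tests are two-sided. CPM are TMM-scaled, and CPM per kilobase use the GENCODE M21 exon length (mm10), in which 12377 tested symbols (94%) were found. DESeq2 1.42.0, another scaling, no filter, only the groups compared, the replicate block and leaving out each library were alternatives.

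Promoters come from RefSeq (GRCm38.p6) and matched 10 of 10 members. Shared windows were counted against all GENCODE M21 transcripts. Members and lists were chosen with earlier results of these data known. The naming rule took all members, 7 further pairs, the family members Pfkl, Pygl and Eno2, up to 4 genes of each list with the smallest p in total RNA, the 5 genes most like either set, Hnrnpd and cell type markers. 1 gene that the rule names is not reported here. Adipocyte markers summed to 9.74 to 18.6 CPM, immune markers to 0.317 to 1.76 CPM and cardiac markers to 2.79 to 14.1 CPM over all libraries.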

Additional observations from a re-analysis of the deposited data

How the results depend on the processing

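With 2 libraries a group, calls near the threshold depended on the fit while the members' directions mostly did not. Of 9 tested members, 4 were called in total RNA and 2 on polysomes. With DESeq2's size factors in edgeR the counts were 0 and 0, and with only the groups compared 0 and 0. The DESeq2 Wald test called 6 and 6. Leaving out any 1 of the 8 libraries gave 0 in each fit. The cause was not tested. Of the member fold changes over the 5 comparisons, 37 kept direction and side of the threshold with DESeq2's size factors, 37 with the DESeq2 test and 44 without the filter on low counts. In the interaction Pygb was 0.02 with the block, with DESeq2's size factors and in DESeq2, and Pfkp 0.02 in the last pair. The interaction needs all groups, so it was not run with only the groups compared.

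The replicate number was also fitted as an additive block, though there are only 2 numbers and what libraries of a number share is not stated. Differences between replicates 1 and 2 correlated across genes between groups (r = 0.62 to 0.81). The block called 7 members in total RNA (6.99% of genes higher) and 6 on polysomes (6.7%), and 4 to 7 and 4 to 7 with a library left out. Besides the 4 called without it, the block called Eno3, Pfkp and Ckb in total RNA (edgeR adjusted p = 0.0161, 0.0233 and 0.0394). On polysomes, besides Pygm and Pgam2, it called Ckm, Pfkm, Eno3 and Pfkp (0.000268, 0.00217, 0.0113 and 0.0274). Ckm, Pygm, Pgam2 and Pfkm were called in both fractions in each of the 8 block fits with 1 library left out, and Eno3, Pfkp and Ckb were not called in all of them. With all libraries kept, the block called 0 members in the interaction and 0 between fractions. Calls between fractions varied with the library left out. The share of all genes called was not taken for any fit with a library left out, so counts from those fits are not results about the members.

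In total RNA the glycolysis list had 0 calls, 2 with the block and 1 in DESeq2, the glycogen list 0, 5 and 1, and the flux regulators 0, 2 and 2. The phosphagen list had 1 call, 6 with the block, 3 in DESeq2 and 0 with DESeq2's size factors, with only the groups compared or with any library left out. The myotube list had 2, 6 with the block, 6 in DESeq2, 4 without the filter, and 0 in those same 3 settings. On polysomes the block called 1 gene of the glycolysis list, 4 of the glycogen list, 2 flux regulators, 4 of the phosphagen list and 6 of the myotube list. Of the block calls, 1 of the phosphagen list in total RNA and 1 of the glycogen list on polysomes were lower. The flux regulators called, by the block in both fractions and by DESeq2 in total RNA, were lower too. The other block calls were higher. In either direction the block called 13.1% of genes in total RNA and 13% on polysomes. The 4 measured pairs were higher in AUF1 cells with either other prior count and with any 1 library left out, and scaling cannot change a ratio within a library. With Gm5506 added to Eno1, a general form whose level is uncertain, all 5 pairs were higher with every library kept. No library was left out there.

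Directions turned when a library was left out for members near 0. Without the block, in total RNA Pygb ran from -0.44 to 0.20 and Pgam1 from -0.74 to 0.13, and on polysomes Pygb from -0.36 to 0.20 and Pgam1 from -0.12 to 0.28. The interaction ran from -0.61 to 0.75 for Ckm, -0.82 to 0.62 for Ckb, -0.47 to 0.05 for Pygm, -0.30 to 0.27 for Pygb, -0.34 to 0.13 for Pgam2, -0.03 to 0.77 for Pgam1, -0.48 to 0.11 for Pfkm, -0.27 to 0.21 for Pfkp and -0.16 to 0.38 for Eno3. Polysome against total RNA ran in WT from -1.29 to 0.06 for Ckm and -0.11 to 0.08 for Pgam2. In AUF1 cells it ran from -1.08 to 0.39 for Ckb, -0.35 to 0.15 for Pgam2 and -0.66 to 0.17 for Pgam1.

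With the replicate block and a library left out, the values that turned were in total RNA 0.09 for Pygb and 0.05 for Pgam1, and on polysomes 0.09 and 0.26 for Pygb and -0.01 and -0.36 for Pgam1. In the interaction they were 0.51 and 0.42 for Ckm, 0.06, 0.61 and 0.45 for Ckb, 0.06 and 0.09 for Pygm, 0.02, 0.02, 0.16, 0.17 and 0.35 for Pygb, 0.20, 0.07 and 0.08 for Pgam2, -0.10 for Pgam1, 0.08 for Pfkm, 0.03, 0.16, 0.09 and 0.26 for Pfkp, and -0.01, -0.20, -0.10 and -0.04 for Eno3. For polysome against total RNA they were 0.11 and 0.23 for Ckb and 0.06, 0.01, 0.14 and 0.02 for Pgam2 in WT, and 0.38 for Ckb, 0.21 and 0.07 for Pgam2 and 0.08 for Pgam1 in AUF1 cells. The cause was not tested.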
